A study of Mus musculus with 6 samples.

Results

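Attaching ubiquitin to a protein and taking it off again are done by separate enzyme families, and 65 genes of these families were examined among 8734 genes measured on bead arrays of the mouse tumour cell line RVP3. They were taken by name from the platform annotation: the 25 genes whose symbol starts with Ube2, which are mostly E2 ubiquitin-conjugating enzymes, and 40 genes named Usp with a number, Otud or Otub, which are mostly deubiquitinases (34 of the Usp family and 6 of the OTU family). Usp18 and Ube2c were left out. Of 101 annotated protein-coding genes that fit these names, 64 were measured, and the 65th member is a pseudogene. The rule goes by name alone, although a probe had to be detected to enter the table, and the families were chosen for study with earlier results of these data known.

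RVP3 cells, grown in vitro and labelled as being of C57BL/6 background, were given DAC/TSA on 3 arrays and nothing on the other 3, so that the single cell line and the lack of a group with either agent alone limit what is compared. DAC, the cytidine analogue 5-aza-2′-deoxycytidine, traps DNA methyltransferases and was given at 3 µM for 48 h, after 24 h in fresh medium, and TSA (trichostatin A) inhibits histone deacetylases and was given at 30 ng/ml for a further 24 h. The labels call the control cells untreated and name no vehicle for them, and the arrays of a group are described as biological replicates. The comparison asks which enzymes of ubiquitin transfer and removal changed in abundance of RNA when both agents were given.

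An E1 enzyme activates ubiquitin, an E2 enzyme carries it on a cysteine, and an E3 ligase brings the E2 to the protein to be modified. Deubiquitinases cut ubiquitin off again, and so spare proteins from the proteasome, edit chains or reverse signals. Related E2 enzymes carry ubiquitin-like proteins such as NEDD8, SUMO and ISG15, and histones H2A and H2B carry a single ubiquitin that marks silenced or transcribed chromatin.

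Because DAC acts on the methylation of CpG dinucleotides, the DNA just before the gene start is shown for 3 genes that were higher and 2 that were lower after DAC/TSA. Each line holds the 100 bases before the start in RefSeq on GRCm38.p6, written 5′ to 3′ on the gene's strand with every CpG in capitals. Methylation of these bases was not measured on the arrays.
Usp2, chr9:44084820-44084919, plus strand: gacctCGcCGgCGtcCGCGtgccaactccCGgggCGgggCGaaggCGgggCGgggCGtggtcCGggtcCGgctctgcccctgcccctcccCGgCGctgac
Usp20, chr2:30982179-30982278, plus strand: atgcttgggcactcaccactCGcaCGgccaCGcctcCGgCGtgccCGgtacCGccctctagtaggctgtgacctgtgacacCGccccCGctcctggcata
Ube2e2, chr14:18893772-18893871, minus strand: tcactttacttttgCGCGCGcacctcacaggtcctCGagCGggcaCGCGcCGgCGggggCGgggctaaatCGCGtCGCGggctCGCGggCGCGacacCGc
Usp54, chr14:20618355-20618454, minus strand: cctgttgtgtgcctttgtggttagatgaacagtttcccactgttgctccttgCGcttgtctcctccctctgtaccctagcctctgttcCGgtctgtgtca
Ube2g1, chr11:72607161-72607260, plus strand: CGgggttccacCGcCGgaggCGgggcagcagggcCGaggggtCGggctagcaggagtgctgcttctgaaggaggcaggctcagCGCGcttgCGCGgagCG
The stretch of Ube2e2 held 19 CpG, that of Usp2 15, that of Ube2g1 11 and that of Usp20 9, whereas that of Usp54 held 2. A dense CpG stretch thus preceded genes that were higher and a gene that was lower.

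On the 3 DAC/TSA arrays 14101 to 15056 of the 45281 probes were detected, against 13227 to 14261 on the 3 control arrays. Correlations of log2 signal ranged from 0.992 to 0.997 within groups and from 0.944 to 0.950 between them. Of the listed markers of other cell types, 3 of 4 measured leukocyte genes (7 listed) were higher after DAC/TSA and 1 was lower, as were 1 and 1 of 3 endothelial, 1 and 0 of 2 mesenchymal and 1 and 0 of 3 epithelial genes. Ptprc, Cd3e and Itgam were not analysed here. Lyz1, Cd52 and Laptm5 were detected on all DAC/TSA arrays and on no control array. Cd79b was detected on no DAC/TSA array and on all control arrays. The part of these genes in the results below was not tested. Of the member genes, 58 were detected on all 6 arrays.

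Each gene was represented by its brightest probe, and its log2 change is the mean log2 signal with DAC/TSA minus that of the control. Changes below are on this log2 scale, ± SE with 3 arrays per group, unless a fold is given. A gene was called higher or lower when its adjusted p from limma was under 0.01. Among the 65 genes, 11 were called higher (16.9%) and 18 lower (27.7%), and the remaining 36 were not called. Over all 8734 genes tested, 27.0% were called higher and 25.8% lower, 52.8% in either direction. The members thus had a smaller share of higher calls than the array as a whole and a share of lower calls near it. Their median log2 change was -0.12, against -0.02 over all genes. On the brightest probes, changes of 2-fold or more were made by Usp2 alone and only upwards, where 7.06% of all genes were higher and 3.82% lower by that much. Dimmer probes of Usp19 and Usp7 were lower by 2.20-fold and 2.03-fold. With a minimum of 1.5-fold, 3 E2 genes and 3 deubiquitinases were higher and 2 E2 genes and 8 deubiquitinases lower, beside 16.5% and 14.0% of all genes. The 3 DAC/TSA and 3 control values did not overlap for 42 of the 65 genes, a share set beside 69.2% of all genes. In bulk RNA, fewer cells with a transcript and less of it per cell cannot be told apart.

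**Figure D1:**
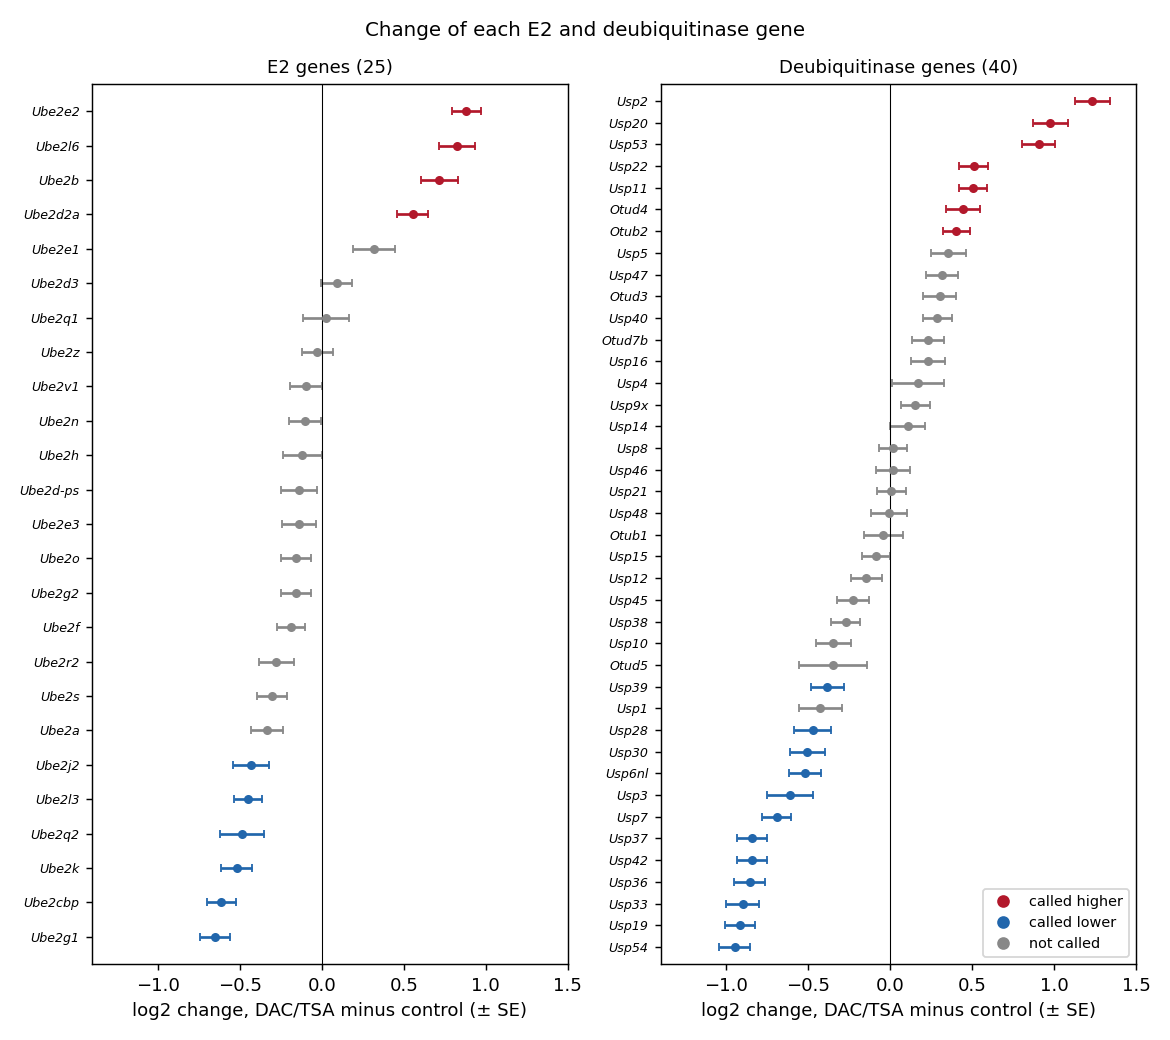
Log2 change (DAC/TSA minus control, horizontal axis) of the 25 E2 genes and the 40 deubiquitinase genes, 1 row per gene, with bars for the SE of the limma fit. Red points are genes called higher, blue points genes called lower and grey points genes not called; Usp2 stands farthest to the right at 1.23 and Usp54 farthest to the left at -0.95.

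Calls depended on how the arrays were put on a common scale. When each array was scaled by its median in place of quantile normalisation, the share of all genes called was 15.3% higher and 9.33% lower, so that higher calls made up 62.1% of all calls, against 51.1% with quantile normalisation. The members then had 3 E2 genes and 3 deubiquitinases called higher, and 0 E2 genes and 5 deubiquitinases called lower. The 11 genes called the same way under both scalings were Usp2, Usp20, Usp53, Ube2e2, Ube2l6 and Ube2b, which were higher, and Usp54, Usp19, Usp36, Usp37 and Usp7, which were lower. Every other call of a member was lost under median scaling (adjusted p, limma, between 0.0111 and 0.235), while the signs of the log2 changes were kept.

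Among the E2 enzymes that pass ubiquitin to many substrates, Ube2e2 and Ube2d2a were higher, Ube2l3 was lower and 4 of the 7 were not called. Ube2e2, a partner of RING-type ligases with an N-terminal extension, had log2 signals of 10.82, 10.77 and 10.66 with DAC/TSA, against 9.80, 9.96 and 9.84 in control cells. All DAC/TSA arrays lay well above all control arrays. The log2 change was 0.88 ± 0.09 (SE, n = 3 each; 1.84-fold, adjusted p = 3.88e-06, limma). Ube2d2a, of the Ube2d group that starts chains with many ligases, had 9.74, 9.86 and 9.98 with DAC/TSA and 9.25, 9.25 and 9.41 in control cells. Here too the groups did not overlap, and the log2 change was 0.56 ± 0.10 (adjusted p = 0.000298, limma). Its relative Ube2d3 differed by 0.09 (95% interval -0.11 to 0.29), and Ube2h, which acts in red cell formation, by -0.12. The brightest probe of Ube2e3 differed by -0.14, and its dimmer probe was called lower at -0.42 (adjusted p = 0.00746, limma). Ube2l3 transfers ubiquitin to HECT and RBR ligases and was among the brightest members. It had 10.49, 10.56 and 10.60 with DAC/TSA and 10.99, 10.94 and 11.07 in control cells, lower on every treated array, with a log2 change of -0.45 ± 0.09 (adjusted p = 0.000627, limma). Ube2e1 changed by 0.32 on the log2 scale, with DAC/TSA values of 7.26, 7.19 and 6.71 against 6.80, 6.68 and 6.71 in control cells, so its groups overlapped (adjusted p = 0.0501, limma; 0.00684 in a fit that blocked the replicate number, where only replicate 3 stood out as a pair).

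The E2 enzymes that build Lys48-linked chains or act at the endoplasmic reticulum all had negative log2 changes. Of these 5, 3 were called lower, where 25.8% of all genes were lower. Under median scaling these 3 calls were lost (adjusted p, limma, 0.0218 for Ube2g1, 0.101 for Ube2k and 0.187 for Ube2j2). The median of the 5 was -0.43. Ube2g1, which extends Lys48-linked chains, had 8.21, 8.09 and 8.20 with DAC/TSA, against 8.76, 8.93 and 8.77 in control cells. The groups lay clearly apart, at a log2 change of -0.65 ± 0.09 (adjusted p = 5.39e-05, limma), and its other probes were lower as well. Ube2k, which makes the same kind of chain, had 9.91, 9.93 and 10.09 with DAC/TSA and 10.42, 10.44 and 10.63 in control cells, at a log2 change of -0.52 ± 0.10 (adjusted p = 0.000505, limma). Its 2 probes gave nearly the same value, between -0.53 and -0.52. Ube2j2, an E2 anchored in the endoplasmic reticulum membrane, fell by 0.43 ± 0.11 (adjusted p = 0.00465, limma). That call was lost without control replicate 2 or 3, or without DAC/TSA replicate 1 or 2 (adjusted p between 0.0108 and 0.0268), and the log2 change then lay between -0.42 and -0.35. Ube2g2, which serves degradation of proteins from the endoplasmic reticulum, had a log2 change of -0.16 and was not called. Ube2r2, a partner of cullin ligases, was seen above background on no DAC/TSA array and on 2 control arrays. Its signal differed from background by too little to give more than a 1.01-fold bound (adjusted p = 0.0404, limma; 0.00491 with the block).

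For the enzymes of Lys63-linked chains no call was made. Ube2n, the catalytic E2 of these chains, had a log2 change of -0.10 (95% interval -0.32 to 0.11), and its inactive partner Ube2v1 also had -0.10 (95% interval -0.31 to 0.11). For both genes the 3 DAC/TSA values overlapped with the control values.

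Of the 3 nuclear E2 enzymes, Ube2b was called higher and the others were not called. Ube2b works with Rad18 and Rnf20/Rnf40 in DNA damage tolerance and histone H2B ubiquitination, and its bright probe had 10.998, 10.872 and 10.701 with DAC/TSA, against 10.321, 10.128 and 9.967 in control cells. By this probe every treated array was above every control array (log2 change 0.72 ± 0.11, adjusted p = 0.000134, limma). A dimmer probe of Ube2b had 6.60, 6.54 and 6.53 with DAC/TSA and 7.01, 7.08 and 6.74 in control cells. It went the other way, by -0.39 ± 0.10 (adjusted p = 0.00578, limma), and with the mean of both probes Ube2b was not called (0.17, adjusted p = 0.164). The direction of Ube2b thus rests on the probe that is read. Ube2a, its close copy, differed by -0.34 (adjusted p = 0.0113, limma; 0.00106 with the block). Ube2s, which elongates Lys11-linked chains for the anaphase-promoting complex, had -0.31 (adjusted p = 0.0122; 0.00277 with the block) and was near background, detected on 2 of 3 DAC/TSA arrays and on 3 of 3 control arrays.

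Of the E2 enzymes for ubiquitin-like proteins, Ube2l6 was higher, and Ube2f and Ube2z (-0.03) were not called. Ube2l6 conjugates ISG15 and is a known interferon-induced gene. It had 6.77, 6.81 and 6.40 with DAC/TSA, against 5.81, 5.87 and 5.82 in control cells, where it was detected on 2 of 3 arrays. No value was shared between the groups, and the log2 change was 0.83 ± 0.11 (1.78-fold, adjusted p = 3.8e-05, limma). Its second probe was also higher, by 0.51. The genes next to it in ISG15 transfer did not move with it: Uba7, the E1 enzyme for ISG15, had 6.16, 6.06 and 6.13 with DAC/TSA and 6.98, 7.10 and 7.04 in control cells (log2 change -0.92 ± 0.09, adjusted p = 1.85e-06, limma), and Isg15 itself differed by -0.24 (adjusted p = 0.0353). Ube2f, a NEDD8 carrier, had 9.40, 9.39 and 9.43 with DAC/TSA and 9.54, 9.55 and 9.70 in control cells, without overlap but with a log2 change of only -0.19 (adjusted p = 0.0807), and none of its 4 probes was called. NEDD8 itself was higher, by 0.52 ± 0.09 (adjusted p = 0.000462, limma).

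Among the large or less studied E2 enzymes Ube2q2 fell by 0.49 ± 0.13 (adjusted p = 0.00748, limma), while Ube2q1 (0.02) and the hybrid E2 and E3 enzyme Ube2o (-0.16) were not called. The call of Ube2q2 was lost without any single array other than control replicate 1 or DAC/TSA replicate 3 (adjusted p between 0.0194 and 0.0339).

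**Figure D2:**
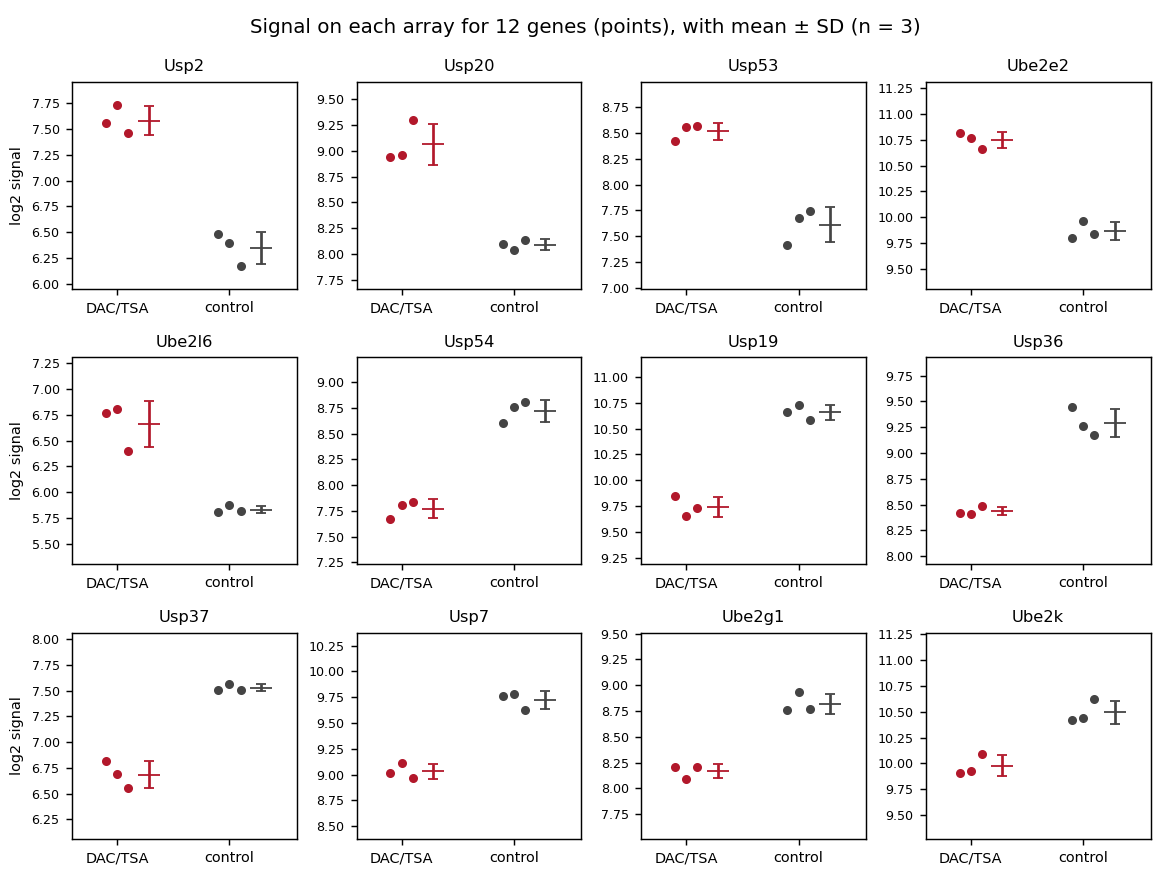
Quantile-normalised log2 signal (vertical axis, with the same height of 2 log2 units in every panel) of 12 genes on the 3 DAC/TSA arrays (red) and the 3 control arrays (grey), with mean ± SD beside the points. In none of the 12 panels did the groups overlap; Usp2, Usp20, Usp53, Ube2e2 and Ube2l6 were higher with DAC/TSA and the other 7 lower.

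Of the 5 deubiquitinases that act on histones and chromatin, Usp22 was higher, Usp36 and Usp3 were lower, and the H2A deubiquitinases Usp16 (0.23) and Usp21 (0.01) were not called. Usp36, a nucleolar enzyme that also acts on histone H2B, had 8.42, 8.41 and 8.48 with DAC/TSA, against 9.44, 9.26 and 9.18 in control cells. The groups lay far apart (log2 change -0.86 ± 0.09, 1.81-fold lower, adjusted p = 7.43e-06, limma), and its second probe fell by 0.68. Usp3, which removes ubiquitin from H2A and H2B, had 7.52, 7.80 and 7.97 with DAC/TSA and 8.22, 8.24 and 8.67 in control cells, a log2 change of -0.61 ± 0.14 (adjusted p = 0.00227, limma; 0.0115 without DAC/TSA replicate 1). Usp22 is the H2B deubiquitinase of the SAGA coactivator. It had 10.78, 10.82 and 10.68 with DAC/TSA and 10.20, 10.26 and 10.30 in control cells, higher on all treated arrays (log2 change 0.51 ± 0.09, adjusted p = 0.000272, limma). A dimmer probe of Usp22 had 0.38 and was not called. The partners listed for Usp22 do not survey the SAGA complex. Both of those listed were lower, with log2 changes of -1.13 ± 0.12 for Atxn7 (adjusted p = 6.85e-06, limma) and -0.57 ± 0.10 for Atxn7l3 (adjusted p = 0.000271). Under median scaling Usp22 and both of these partners missed the threshold.

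The 13 deubiquitinases linked to DNA repair, p53 and the cell cycle included the highest member, Usp2, and 4 that were lower. Usp2, which stabilises Mdm2 and cyclin D1 and is known as a rhythmically expressed gene, had 7.56, 7.73 and 7.46 with DAC/TSA, against 6.48, 6.39 and 6.18 in control cells. Its lowest treated value stood almost 1 log2 unit above its highest control value. The log2 change was 1.23 ± 0.11 (2.35-fold, adjusted p = 1.01e-06, limma). Usp11, an X-linked enzyme of homologous recombination, was higher by 0.51 ± 0.09 (adjusted p = 0.000254, limma), and its other probe by 0.44.

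Usp7, which stabilises Mdm2 and p53, had 9.02, 9.11 and 8.97 with DAC/TSA, against 9.77, 9.79 and 9.63 in control cells. The treated values were lower throughout, at a log2 change of -0.69 ± 0.09 (adjusted p = 2.88e-05, limma), and its other probes gave -1.02 and -0.64. Gmps, a nuclear partner that activates Usp7, fell by 0.67 ± 0.13 (adjusted p = 0.000574, limma). Usp37, which protects cyclin A from the anaphase-promoting complex, had 6.81, 6.69 and 6.56 with DAC/TSA and 7.51, 7.57 and 7.50 in control cells, a log2 change of -0.84 ± 0.09 (1.79-fold lower, adjusted p = 7.41e-06, limma). A second probe of Usp37, close to background, differed by 0.01 (95% interval -0.21 to 0.23). Usp42, a p53 deubiquitinase, had 7.37, 7.38 and 7.50 with DAC/TSA and 8.20, 8.22 and 8.36 in control cells, again without overlap (log2 change -0.84 ± 0.09, adjusted p = 5.38e-06, limma). Usp28, which stabilises Myc in human cells, fell by 0.47 ± 0.11 (adjusted p = 0.00298, limma; 0.0135 without control replicate 1 and 0.0106 without control replicate 2).

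The other 7 of this group were not called. Usp1, which deubiquitinates Fancd2 and PCNA, had 7.07, 7.33 and 7.52 with DAC/TSA, against 7.59, 7.62 and 7.99 in control cells. These values did not overlap but their spread was wide (log2 change -0.43 ± 0.13, adjusted p = 0.0148, limma; 0.000145 with the block), and 2 of its 3 probes were called lower. Usp10, a p53 deubiquitinase that binds G3bp1, had -0.35 (adjusted p = 0.0138; 0.00064 with the block), and G3bp1 fell by 0.91 ± 0.10 (adjusted p = 7.03e-06, limma). Usp5, which recycles free ubiquitin chains, Usp47, which acts in base excision repair, and Otud3 had positive log2 changes of 0.36, 0.32 and 0.30 and were called higher with the block (adjusted p = 0.00232, 0.00159 and 0.00648). Otub1, which blocks Ube2n directly, had -0.04 (95% interval -0.30 to 0.21), and Usp45, which acts on the repair nuclease partner Ercc1, had -0.23.

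Of the 9 deubiquitinases of the proteasome, endosomes and organelles, Usp20 was higher and Usp33, Usp19 and Usp30 were lower. Usp20, which binds the VHL protein and stabilises Hif1a, had 8.94, 8.96 and 9.29 with DAC/TSA, against 8.09, 8.03 and 8.14 in control cells. DAC/TSA replicate 3 was the highest and the control arrays lay close together (log2 change 0.98 ± 0.11, 1.97-fold, adjusted p = 6.97e-06, limma). Usp33, the nearest relative of Usp20 and also a VHL-binding enzyme, had 8.58, 8.73 and 8.80 with DAC/TSA and 9.49, 9.57 and 9.75 in control cells. It moved the opposite way (log2 change -0.90 ± 0.10, 1.87-fold lower, adjusted p = 7.82e-06, limma), and its second probe fell by 0.82.

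Usp19, anchored in the endoplasmic reticulum membrane, had 9.85, 9.65 and 9.73 with DAC/TSA, against 10.67, 10.73 and 10.58 in control cells. Treated and control arrays were well separated (log2 change -0.92 ± 0.09, adjusted p = 3.21e-06, limma), and the dimmer of its 2 probes gave -1.14. Usp30, the mitochondrial deubiquitinase that opposes Parkin, fell by 0.51 ± 0.11 (adjusted p = 0.00137, limma; 0.0103 without DAC/TSA replicate 2). The enzymes of the proteasome and of endosomes gave no call: Usp14, bound to the proteasome, had 0.11 (95% interval -0.13 to 0.34) and was detected on 3 of the 6 arrays, Usp8 had 0.02 (95% interval -0.17 to 0.20) and Usp9x had 0.15 (95% interval -0.04 to 0.34). Usp12 and Usp46, which share the activators Wdr48 and Wdr20, had -0.15 and 0.01, while Wdr20 fell by 0.51 ± 0.10 (adjusted p = 0.000602, limma).

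In the group of innate and growth factor signalling, Otud4 and Otub2 were higher and the other 4 were not called. Otub2, a relative of Otub1, had 6.95, 6.92 and 6.94 with DAC/TSA, against 6.56, 6.49 and 6.54 in control cells. The spread was small and the groups were apart (log2 change 0.40 ± 0.08, adjusted p = 0.00109, limma), with 2 of 3 probes called higher. Otud4, known from repair of alkylated DNA, was higher by 0.44 ± 0.11 (adjusted p = 0.00301, limma), and the call was lost without control replicate 1 or 2 (adjusted p = 0.0171 and 0.0143). Otud5, which restrains interferon induction through Traf3, had 7.71, 7.72 and 8.63 with DAC/TSA and 8.36, 8.15 and 8.61 in control cells. DAC/TSA replicate 3 stood apart from the other treated arrays, at or above the control level. With all arrays the log2 change of Otud5 was -0.35 ± 0.21 (adjusted p = 0.164, limma); without DAC/TSA replicate 3 it was -0.66 (adjusted p = 0.000252). Blocking the replicate number gave an adjusted p of 0.00644. Otud7b, which cuts Lys11-linked chains, had 0.23, and the paralogues Usp4 and Usp15, known from TGF-beta signalling, had 0.17 and -0.09; none of them was called. The 6 genes named Otud or Otub together had 2 higher and 0 lower, at a median of 0.27. The 34 Usp genes had 5 higher and 12 lower, at a median of -0.12. Of OTU enzymes with other names, Yod1 (-0.87) and Zranb1 (-0.52) were lower, and Tnfaip3 (0.42) and Otulin (0.41) were higher. Over all genes 27.0% were higher and 25.8% lower. Under median scaling the calls of Otub2 and Otud4 were lost (adjusted p, limma, 0.0407 and 0.159). The deubiquitinases together then had 3 higher and 5 lower, so the calls do not establish a difference between these families.

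Usp53 and Usp54, a related pair that lacks a place in the groups above, also moved apart. Usp53, a protein of tight junctions, had 8.42, 8.56 and 8.57 with DAC/TSA, against 7.42, 7.68 and 7.75 in control cells. Every treated array was above every control array (log2 change 0.90 ± 0.10, 1.87-fold, adjusted p = 1.02e-05, limma), and a second probe gave 0.998. Usp54 had 7.67, 7.81 and 7.84 with DAC/TSA and 8.60, 8.76 and 8.81 in control cells, lower on every treated array (log2 change -0.95 ± 0.09, 1.93-fold lower, adjusted p = 3e-06, limma). Usp38 (-0.27), Usp40 (0.29) and Usp48 (-0.01), also outside the groups above, were not called; with the block Usp38 was lower and Usp40 higher (adjusted p = 0.00542 and 0.00422).

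The name rule also took in genes that are not active enzymes of either class. Of these, Ube2cbp, Usp39 and Usp6nl were lower, while Ube2v1, the inactive partner of Ube2n given above, was not called. Ube2cbp is an E2-binding protein, Usp39 a splicing factor with an inactive protease domain, and Usp6nl a GTPase-activating protein for Rab proteins. Ube2cbp had 7.33, 7.44 and 7.48 with DAC/TSA, against 8.01, 7.97 and 8.10 in control cells (log2 change -0.61 ± 0.09, adjusted p = 6.87e-05, limma). Usp6nl fell by 0.52 ± 0.10 (adjusted p = 0.000548). Usp39 fell by 0.38 ± 0.10 (adjusted p = 0.00495; between 0.0102 and 0.0229 when control replicate 1 or 3 or DAC/TSA replicate 1 or 2 was left out). Without these 3 genes and Ube2v1, 5 E2 genes and 10 deubiquitinases were lower. Ube2d-ps, a pseudogene whose probe may not be told apart from active Ube2d copies, was not called.

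Setting the E2 genes beside the deubiquitinases, 4 of 25 E2 genes were higher and 6 lower (16% and 24%), while 7 of 40 deubiquitinases were higher and 12 lower (17.5% and 30%). With quantile normalisation both classes had more lower than higher calls, where 27.0% of all genes were higher and 25.8% lower. For E2 genes this order depended on the setting. Under median scaling 3 E2 genes were higher and 0 lower, and with a 1.5-fold minimum 3 were higher and 2 lower. Deubiquitinases had 3 higher and 5 lower under median scaling, and 3 higher and 8 lower with the minimum. With replicate numbers blocked, 5 E2 genes were higher and 9 lower, and 11 deubiquitinases were higher and 16 lower, while the shares over all genes were 32.5% higher and 32.8% lower. The median log2 change was -0.14 for E2 genes, with quartiles at -0.34 and 0.02, and -0.02 for deubiquitinases, with quartiles at -0.48 and 0.29. Over all genes the quartiles were -0.37 and 0.39, so the deubiquitinases spread about as widely as the array as a whole and the E2 genes less widely. The log2 change was negative for 18 of 25 E2 genes and 21 of 40 deubiquitinases, beside 4514 of all 8734 genes. The difference between the medians was -0.12 and moved between -0.14 and -0.06 as single arrays were left out, with -0.06 without control replicate 1.

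The mean log2 signal of the E2 genes was 7.88, 7.91 and 7.87 on the DAC/TSA arrays, against 7.95, 7.95 and 7.97 on the control arrays. That of the deubiquitinases was 7.64, 7.67 and 7.68 with DAC/TSA, against 7.74, 7.74 and 7.75 in control cells. Both class means were lower on all treated arrays. The gap between the classes, E2 minus deubiquitinases, was 0.24, 0.24 and 0.20 with DAC/TSA and 0.21, 0.21 and 0.22 in control cells, so the gap overlapped between the groups. Over all genes the mean went up slightly, with 8.09, 8.08 and 8.08 on DAC/TSA arrays and 8.05, 8.06 and 8.04 on control arrays.

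**Figure D3:**
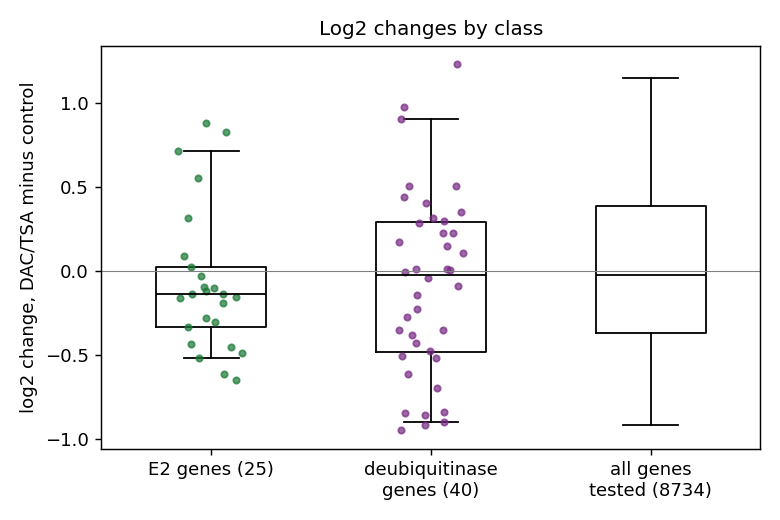
Log2 changes (DAC/TSA minus control, vertical axis) of the 25 E2 genes, the 40 deubiquitinase genes and all 8734 genes tested; boxes span the quartiles, lines mark the medians, whiskers reach the 5th and 95th percentiles and points are single member genes. The medians are -0.14, -0.02 and -0.02.

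Several members are close copies of each other, and 13 such pairs were set side by side, chosen after the values were known. For each pair the difference between both genes' log2 signals was taken on each array, which removes any overall scaling of an array, and compared between groups by a two-sided exact permutation test, whose smallest possible p for 3 against 3 arrays is 0.1. The groups did not overlap for 10 of the 13 pairs, with or without normalisation between arrays, and each of these had an exact permutation p of 0.1 (0.13 after Benjamini-Hochberg adjustment over the 13 pairs), so no pair could pass a threshold of 0.05. Groups of single genes failed to overlap for 69.2% of all genes, and the share among gene pairs at large was not computed, so nothing is read from the count of 10. For 3 pairs both genes were called, in opposite directions, with quantile normalisation. Under median scaling the calls of Usp33 and Ube2l3 were lost (adjusted p, limma, 0.0141 and 0.122), and of these pairs only Usp53 and Usp54 kept both calls. The log2 changes differed by 1.88 between Usp20 and Usp33, by 1.85 between Usp53 and Usp54 and by 1.28 between Ube2l6 and Ube2l3. Without normalisation these differences were 1.89, 1.85 and 1.29.

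The other pairs were closer. Ube2e2 exceeded Ube2e3 by 1.02 and Ube2e1 by 0.56, and Ube2b exceeded Ube2a by 1.05 on its bright probe. Usp36 and Usp42, close relatives that were both lower, differed by -0.01, with overlapping groups (exact permutation p = 0.9). For Usp11 and Usp4 (0.34, exact permutation p = 0.3) and for Usp4 and Usp15 (0.26, exact permutation p = 0.4) the groups overlapped as well.

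**Figure D4:**
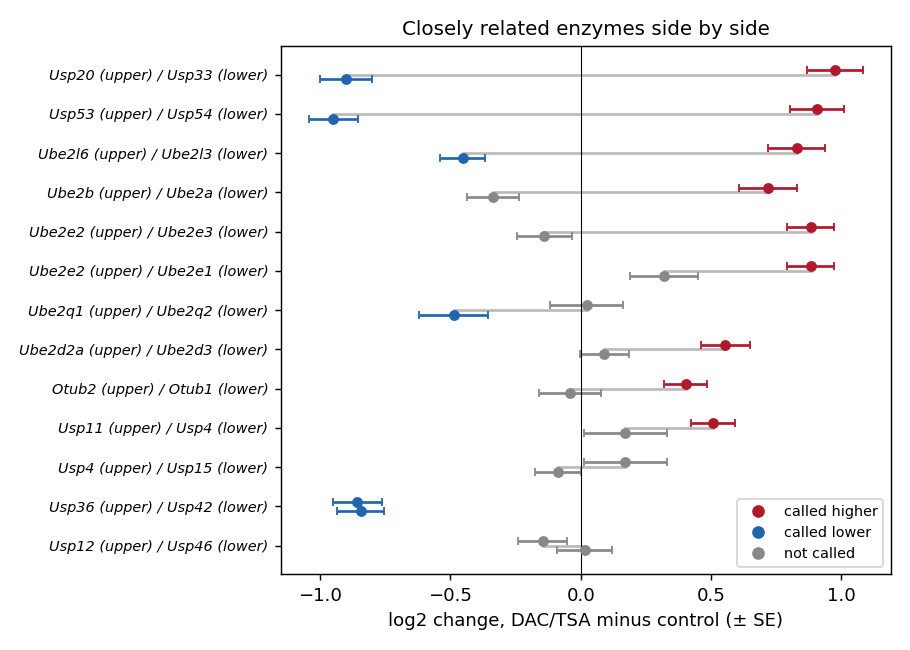
Log2 changes (DAC/TSA minus control, horizontal axis) of 13 pairs of closely related genes, 1 pair per row joined by a grey line, with SE bars from limma; the first-named gene is drawn slightly above the second. Red marks genes called higher, blue genes called lower and grey genes not called; Usp20 with Usp33, Usp53 with Usp54 and Ube2l6 with Ube2l3 lie on opposite sides of 0.

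Different probes of one gene were often, but not always, called alike. Of the 31 member genes with several tested probes, 21 had all probes called alike, 9 had some probes called and others not, and Ube2b alone had probes called in opposite directions. The 21 include genes with no probe called, and some of those had probes of opposite sign, such as Usp4 (-0.14 and 0.17) and Ube2q1 (-0.43 and 0.02). Probes can report different transcripts of a gene, and they were not mapped to transcripts here.

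**Figure D5:**
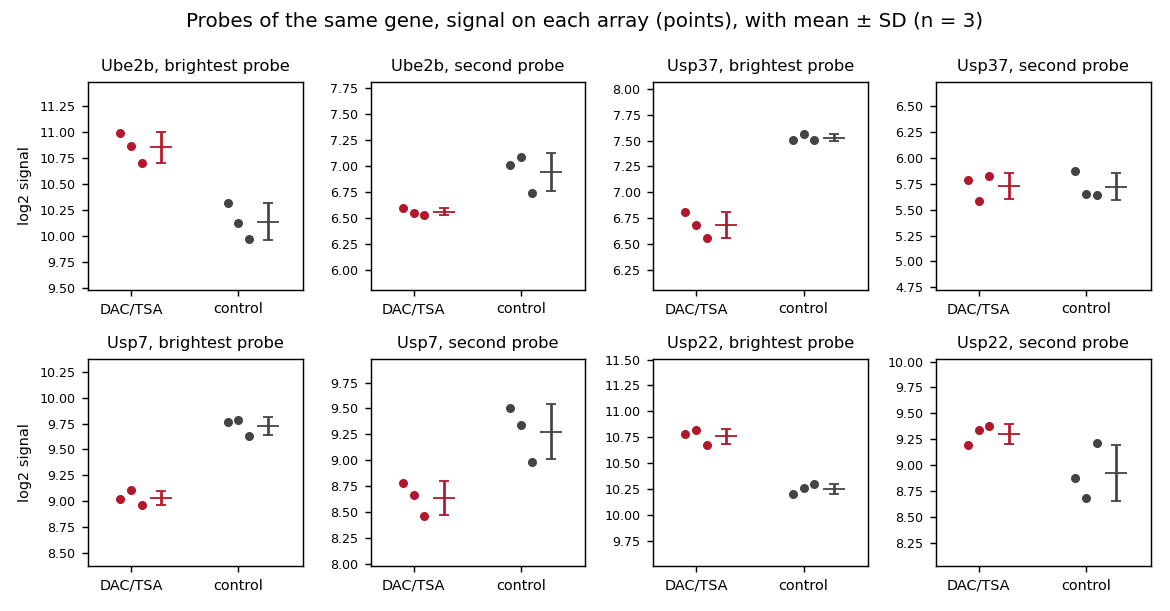
Quantile-normalised log2 signal (vertical axis, 2 log2 units in every panel) of the brightest and a second probe of Ube2b, Usp37, Usp7 and Usp22 on the 3 DAC/TSA arrays (red) and the 3 control arrays (grey), with mean ± SD. The Ube2b probes differ in direction (0.72 and -0.39), the second Usp37 probe shows no difference (0.01), and both probes of Usp7 and of Usp22 point the same way.

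Promoter sequence was a feature that the choice of genes did not use. A window of 250 bases before the gene start was at hand for 51 of the 65 genes, the first listed where a gene had several. These windows held a median of 23 CpG, against 16 over the 7138 tested genes with a window, and the range ran from 3 in Otub2 to 55 in Usp7. E2 genes and deubiquitinases were alike in this, with medians of 23 and 22.5. Members called higher had a median of 17 (n = 8), members called lower 26 (n = 15) and members not called 23 (n = 28). Over all genes the order was the same but flatter, with 15 in genes called higher, 18 in genes called lower and 17 in genes not called. Across genes, which are not independent replicates, Spearman's rho between CpG number and log2 change was -0.08 over the 51 members and -0.11 over all 7138 genes, and is given as a description only. Otub2 and Usp54 were the only members with under 5 CpG (3.92% of members, against 9.18% of all tested genes), and 1 was higher and the other lower. For Otub2 this was the first of 3 listed windows, and the rest were not counted.

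Letter matches were searched on both strands of the same windows. The GC box GGGCGG, which holds a CpG itself, was found in 68.6% of members and 61.9% of all tested genes with a window, and CCAAT in 17.6% and 37.1%. Of the shown genes, Usp2, Usp20, Ube2e2 and Ube2g1 had a GC box in their window and Usp54 had none, and none of the 5 had CCAAT.

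The other genes of the pathway, from lists of known members, moved in both directions. For comparison with each count that follows, 27.0% of all genes were higher and 25.8% lower. Of 20 measured genes listed as deubiquitinases under other names, OTU enzymes among them, 6 were higher and 8 lower. Uchl1, a deubiquitinase known from neurons, had the largest change among them, with 9.33, 9.34 and 9.24 with DAC/TSA against 6.67, 6.52 and 6.23 in control cells (log2 change 2.83 ± 0.11, adjusted p = 1.64e-09, limma). The largest member change, that of Usp2, was 1.23. Josd2, a Josephin-type enzyme, was higher by 1.20, and Mysm1, which removes ubiquitin from H2A, fell by 1.29. Of 5 measured E1 enzymes, 0 were higher and 2 lower, Uba7 and Uba6. Of 6 measured ubiquitin and ubiquitin-like genes, 2 were higher and 2 lower. Of 9 measured SUMO and NEDD8 proteases, 3 were higher and 1 lower. Of 11 measured partners of the member enzymes, 0 were higher and 6 lower, at a median of -0.49, where 25.8% of all genes were lower; of these 6, the call of G3bp1 was kept under median scaling and those of Atxn7, Gmps, Atxn7l3, Wdr20 and Rnf40 were not. The 4 measured E2 genes that carry other names gave 0 higher and 1 lower, the UFM1 carrier Ufc1 (-0.44). Outside the members, the calls of Uba7, Uchl1, Josd2 and Mysm1 were kept under median scaling, and those of Nedd8, Uba6 and Ufc1 were not.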

How the data were processed

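Total RNA of 6 cultures was hybridised to Illumina Mouse WG-6 bead arrays. The authors deposited probe intensities on a linear scale, extracted with BeadStudio and not normalised, with a detection p-value per probe and array (45281 probes). They also deposited log2 values of 15131 probes, which quantile normalisation of the log2 intensities over all probes matched here to within 5e-14, so their scale is log2 without gene centring (median 7.27 on each array). Per the study's methods, the authors normalised by quantiles, took log2 and tested with limma, and the submitters' processing notes name limma. A genome build for the probes is not given in the sources used here.

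Here the intensities were quantile normalised as log2, probes with a detection p-value above 0.01 on all arrays were left out, and the 16760 remaining probes were fitted with lmFit and eBayes of limma 3.58.1 in R 4.3.3, with groups from the sample labels. P-values are two-sided, with Benjamini-Hochberg adjustment over all 16760 probes and a threshold of 0.01. Gene symbols came from the platform annotation of the deposited log2 table, where 13126 probes had 1 symbol, 6 several and 1999 none; 3634 tested probes have no name here. A gene is represented by its probe with the highest mean log2 signal. No column of sample values was left unused. On bead arrays the number of arrays limits the precision, and bead number and slide were not used here. The fit was tested on simulated data first.

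The annotation holds 101 protein-coding genes that fit the name rule, of which 64 were measured and 37 were not analysed here; the 65th member is a pseudogene. For a gene detected on no array of a group, a bound was set against the lowest detected signal. Named genes were the called genes of each class with the highest and lowest log2 changes (up to 8 each way), genes whose probes differed in call, genes undetected in a group and a fixed list of well-known enzymes; others are named to complete a group. Members, lists and tests were chosen with earlier results of these data known, and no p-value was computed over a list. Alternatives were median scaling, neqc, other filters, the mean of probes, a fold minimum, leaving out single arrays or inactive members, and the replicate number as a block. No label ties a replicate number to a common day or batch. Any pairing could only be read from the data. Deviations from the group means of same-numbered DAC/TSA and control arrays correlated at 0.34, 0.24 and 0.65 over probes, all above 0.1. Arrays 1 and 2 were not told apart, since DAC/TSA array 1 correlated with control array 2 at 0.37 and DAC/TSA array 2 with control array 1 at 0.22. Array 3 correlated with the others at -0.34 to -0.53, so only replicate 3 stands out as a pair.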

Additional observations from a re-analysis of the deposited data

How the results depend on the processing

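No named gene that was called in the fit reported above or in an alternative changed direction between them. Changes of sign in genes called in neither were not counted. Of the 27 called named genes, 10 kept their call under all alternatives run: Ube2e2, Ube2l6, Usp2, Usp19, Usp20, Usp36, Usp37, Usp53, Usp54 and Usp7. Under median scaling 0 E2 genes were lower, and 3 deubiquitinases were higher and 5 lower; counting only calls made under both scalings gave the same numbers, an alternative chosen after seeing the data. The median of all genes was then 0.02, against -0.02, and the cause of the lost calls was not tested. With a 1.5-fold minimum 2 E2 genes were lower and 3 deubiquitinases higher. With the replicate number as a block for pairing, 5 E2 genes were higher and 9 lower, and 11 deubiquitinases were higher and 16 lower, beside 32.5% higher and 32.8% lower over all genes; the added calls are given beside Usp1, Usp5, Usp10, Usp47, Otud3, Otud5, Ube2a, Ube2e1, Ube2r2 and Ube2s, with Usp40 (higher) and Usp38 (lower) besides, and no call was lost. The difference between the class medians (E2 minus deubiquitinases, -0.115) was -0.134 under median scaling, -0.131 with neqc, -0.127 with the mean of probes, -0.098 for genes detected on all arrays of a group and for genes detected on all arrays, -0.139 without inactive members and -0.148 without the pseudogene as well, the last chosen after seeing the data. Leaving out single arrays gave -0.142 to -0.059 for this difference, -0.185 to -0.084 for the E2 median and -0.059 to -0.004 for the deubiquitinase median, with 4 to 5 E2 genes higher, 4 to 7 lower, 6 to 9 deubiquitinases higher and 10 to 15 lower. The E2 median of -0.084 and the difference of -0.059 were those without control replicate 1. Genes not called with all arrays were called without DAC/TSA replicate 3 (Usp1, Usp10, Usp40, Usp47, Otud5, Ube2a, Ube2e1), without control replicate 2 (Usp5, Usp10) or without control replicate 3 (Ube2s).

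All values come from 1 cell line with 3 arrays per group, and the p-values measure only the spread between these cultures. The files used give neither slide nor scan, so neither was tested. The log2 changes of members near background, such as Ube2r2, Ube2s, Usp14, Usp15 and Usp48, are limited by signal. RNA level says nothing of the enzymes' protein or activity.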
